A study of Mus musculus with 10 samples.

Results

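The CXCR3 axis is the set of chemokines, small secreted proteins that draw cells along a gradient, which bind the receptor CXCR3 on activated T cells and natural killer (NK) cells. It was examined here as 8 genes: the CXCR3 ligands Cxcl9, Cxcl10 and Cxcl11, the receptor Cxcr3, the ligand and receptor pair Cxcl16 and Cxcr6, and the lymphocyte-derived chemokines Ccl5 and Xcl1. The members were the rows of the deposited count table that carried these gene names, 8 of 36009 rows, and all 8 passed the filter on low counts. RNA was sequenced from pieces of 10 CT26 tumors, a colorectal carcinoma line grown under the skin of wild-type female BALB/c mice. Each piece was taken at incomplete surgical removal, before any treatment, and a hydrogel loaded with poly(I:C), a synthetic double-stranded RNA that triggers interferon, was then applied to the tumor left behind. The labels sorted the mice afterwards into 6 responders and 4 non-responders, so the comparison asks which levels already differed before the drug was given. The response belonged to the tumor left in place and the RNA to the piece removed. The tumors are numbered within each group only to name them. A gene said below to rise or fall was higher or lower in responders than in non-responders, with no change over time measured.

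Interferon-gamma from T cells and NK cells induces the CXCR3 ligands in tumor, endothelial and myeloid cells, and type I interferon and NF-kB signaling add to the induction of Cxcl10. CXCL16 is made as a membrane protein by macrophages and dendritic cells and is cut from the surface by proteases, and its receptor CXCR6 marks effector and tissue-resident T cells. CCL5 and XCL1 are released by activated T cells and NK cells, and XCL1 acts on XCR1, a receptor of type 1 conventional dendritic cells (cDC1).

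Total estimated counts ran from 29065126 to 38042544 in responders and from 23374649 to 32986456 in non-responders, and levels are given as CPM, the estimated counts scaled to the size of each library after TMM normalization. Of 16041 genes tested with edgeR, 756 were higher and 537 lower in responders at an adjusted p under 0.05. Non-responder 1 had the lowest level of all 8 members, and responder 5 the highest of 7 of them. The epithelial markers Krt8, Krt18 and Epcam all fell below the filter, with summed levels of 0.235 to 0.594 CPM in responders and 0.477 to 0.933 CPM in non-responders. These markers therefore did not bear out the label of a carcinoma, and they cannot decide it. Their level in the CT26 line itself was not compared. No other gene of the tumor line was examined for its identity.

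All 8 members had a higher fitted level in responders than in non-responders. Their log2 fold changes ran from 0.65 to 2.15 with a median of 0.93, beside a median of -0.01 over all genes tested, of which 3.07% reached the members' median. Cxcl16 and Cxcr6 passed an adjusted p of 0.05 in edgeR, 2 of 8 members against 4.71% of all tested genes called higher and 8.06% called in either direction. At an unadjusted p under 0.05 the count was 8 of 8, where 15.6% of all genes were as low in p and higher in responders, and 48.2% of all genes had a positive estimate. For 3 of the 8 members, Cxcr3, Cxcl16 and Xcl1, every responder lay above every non-responder, which 5.84% of tested genes did. The members and the lists below were chosen with earlier results of these data known. The shares over all genes are therefore a description beside them and not a test of them. The calls depended on which tumors were in the fit. The count of members called was 0 after leaving out any 1 of 8 tumors, 3 without responder 4 and 2 without non-responder 2. Over these 10 fits 6 to 8 members had an unadjusted p under 0.05 in edgeR, while 0 to 1897 of all genes were called. DESeq2 called 5 members, Cxcl16, Cxcr6, Cxcr3, Ccl5 and Xcl1. It called 2584 genes in all, against 1293 in edgeR, and each DESeq2 count below stands beside that number.

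**Figure D1:**
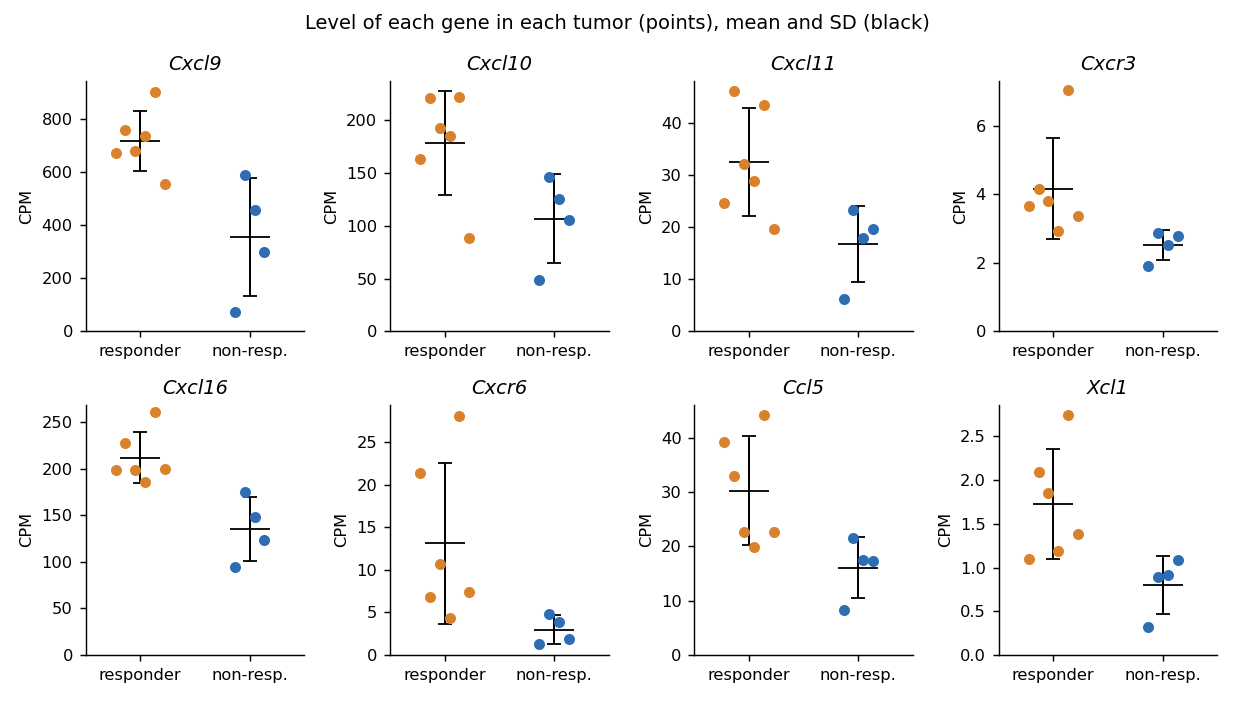
Level of each of the 8 genes in CPM (vertical axis, from 0, one panel per gene) in the 6 responders (orange) and 4 non-responders (blue), 1 point per tumor, with the mean and SD in black. Cxcr3, Cxcl16 and Xcl1 do not overlap between the groups, and non-responder 1 is the lowest point of every panel.

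Cxcl9, Cxcl10 and Cxcl11 lie next to each other on the minus strand of chromosome 5 (GRCm38), at chr5:92321347-92328079, chr5:92346638-92348889 and chr5:92359544-92365485. In the reference annotation Cxcl11 is typed as a polymorphic pseudogene, a gene intact in some mouse strains and not in others. RefSeq windows of 250 bases before the gene start (GRCm38.p6) were found for 5 of the 8 members, Cxcl9, Cxcl10, Cxcr3, Cxcr6 and Xcl1. The windows of the neighboring genes Cxcl10 (chr5:92348890-92349139, minus strand) and Cxcl9 (chr5:92328080-92328329, minus strand) are shown 5′ to 3′, because both genes are known interferon targets and both had higher mean levels in responders. Capitals mark matches on either strand to the interferon-stimulated response element (ISRE, GAAANNGAAA), the gamma-activated site (GAS, TTCNNNGAA) or the NF-kB motif.
Cxcl10: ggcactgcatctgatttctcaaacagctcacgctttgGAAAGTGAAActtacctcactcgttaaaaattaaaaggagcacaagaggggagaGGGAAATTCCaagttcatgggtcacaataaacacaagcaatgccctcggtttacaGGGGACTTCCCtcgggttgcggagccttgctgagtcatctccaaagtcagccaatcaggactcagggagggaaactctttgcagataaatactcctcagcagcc
Cxcl9: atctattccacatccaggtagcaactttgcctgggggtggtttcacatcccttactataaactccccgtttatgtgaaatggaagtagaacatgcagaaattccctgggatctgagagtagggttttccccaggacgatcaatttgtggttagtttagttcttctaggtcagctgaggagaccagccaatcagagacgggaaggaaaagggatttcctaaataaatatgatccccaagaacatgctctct
The Cxcl10 window held 1 ISRE match, from -213 to -204 relative to the gene start, and 3 NF-kB matches, from -159 to -150, from -104 to -95 and from -103 to -94, of which the last pair overlap. The Cxcl9 window and those of Cxcr3, Cxcr6 and Xcl1 held no match to any of the 3 motifs. Over 32536 promoter windows of this length, 2.98% held the ISRE, 7.04% the GAS and 7.28% the NF-kB motif. A match describes letters only and says nothing of binding in these tumors. Only exact matches were counted, so a window without a match can still hold a site that differs by a base.

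The CXCR3 ligands were higher on average in responders, and none of the 3 passed correction. Cxcl9 (ENSMUSG00000029417), the ligand most dependent on interferon-gamma, measured 71.1, 589, 457 and 299.9 CPM in non-responders 1 to 4. In responders it ran from 555 to 902 CPM with a median of 708. Responder 6 lay inside the range of the non-responders and the other 5 lay above it. The means were 717 ± 115 CPM (SD, n = 6) and 354 ± 223 CPM (SD, n = 4), which gave a difference of 1.02 in log2 (SE 0.42, adjusted p = 0.134 in edgeR). Cxcl9 spanned 12.7-fold from the lowest to the highest tumor, and the SD of the non-responders was larger than that of the responders.

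Cxcl10 (ENSMUSG00000034855), a ligand that also answers to type I interferon and NF-kB, stood at 48.7, 147, 126 and 106 CPM in non-responders 1 to 4. The responders ran from 88.65 to 222 CPM with a median of 189. Responder 6 again fell among the non-responders, below 3 of them, and the other 5 responders stood above all 4. The difference was 0.74 on the log2 scale (SE 0.30, adjusted p = 0.13 in edgeR), between means of 179 ± 49.5 CPM (SD, n = 6) and 107 ± 42.1 CPM (SD, n = 4). Exons of Cxcl10 share bases with those of Art3, on the opposite strand, whose level was 3.22 ± 1.04 CPM in responders and 1.81 ± 0.42 CPM in non-responders. The strand setting of the counting is not given in the sources used here, and the Art3 level was small beside that of Cxcl10.

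For Cxcl11 (ENSMUSG00000060183), the CXCR3 ligand of highest affinity, non-responders 1 to 4 had 6.26, 23.2, 17.9 and 19.6 CPM. Responders had 19.7 to 46.0 CPM with a median of 30.4. The groups overlapped through responder 6, and the highest tumor was responder 2. The log2 fold change was 0.95 (SE 0.33, adjusted p = 0.0881 in edgeR), from 16.7 ± 7.32 CPM (SD, n = 4) to 32.5 ± 10.4 CPM (SD, n = 6). The locus of Cxcl11 overlaps Art3 without shared exon bases and the pseudogene Gm2673, which did not exceed 0.0312 CPM in any tumor.

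The makeup of the 3 ligands was compared as CPM per kilobase of transcript, so that length does not enter. Cxcl9 made up 56.9% to 70.6% of the summed ligand level in responders, and 36.8%, 61.4%, 59.1% and 52.5% in non-responders 1 to 4. Non-responder 1 was the only tumor in which Cxcl10 was the larger part, with 59.7% of the sum against 26.7% to 43.8% elsewhere. Cxcl11 stayed between 2.44% and 3.72% in all 10 tumors. The mean share of Cxcl9 was 61.7% ± 4.81 (SD, n = 6) in responders and 52.5% ± 11.1 (SD, n = 4) in non-responders. These shares were chosen after the values were seen and carry no test.

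**Figure D2:**
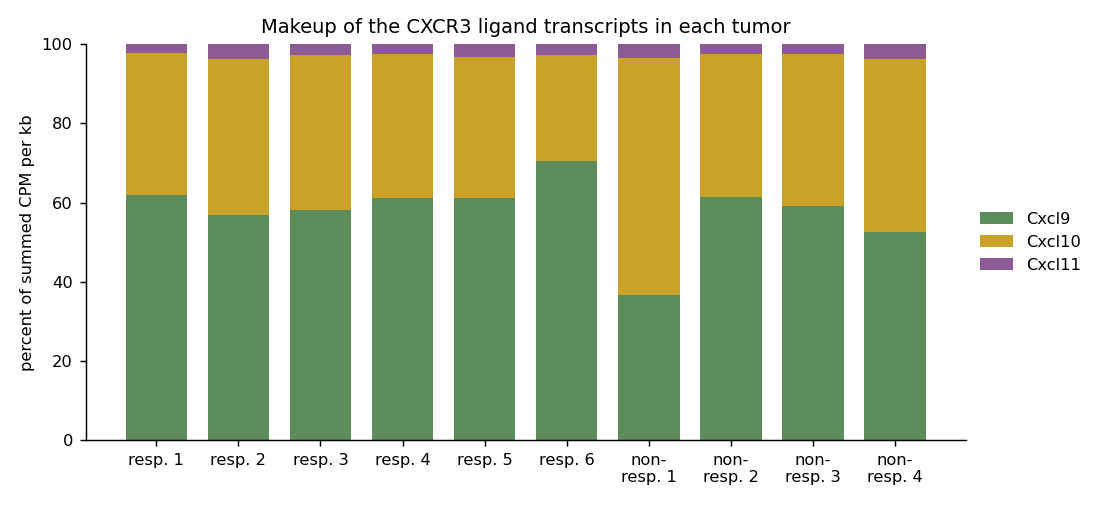
Percent of the summed CPM per kb of Cxcl9 (green), Cxcl10 (yellow) and Cxcl11 (purple) in each tumor, as stacked bars from 0 to 100 percent. Cxcl9 is the largest part in every tumor but non-responder 1, where it is 36.8%.

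Cxcr3 (ENSMUSG00000050232, chrX:101731535-101734269, minus strand), the receptor of these 3 ligands, separated the groups at a low level. Its values were 1.90, 2.87, 2.52 and 2.78 CPM in non-responders 1 to 4, from 47 to 92 counts. Responders had 2.94 to 7.05 CPM with a median of 3.74, from 89 to 252 counts. Every responder was above every non-responder, but the lowest responder, at 2.94 CPM, was close to the highest non-responder, at 2.87 CPM, and responder 5 stood well above the rest. The log2 fold change of 0.73 (SE 0.24, adjusted p = 0.0791 in edgeR) did not pass correction, with means of 4.16 ± 1.47 CPM (SD, n = 6) and 2.52 ± 0.44 CPM (SD, n = 4).

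Cxcl16 rose in responders and had the smallest adjusted p of the 8 genes. Cxcl16 (ENSMUSG00000018920, chr11:70453983-70459984, minus strand) measured 94.2, 175, 149 and 123 CPM in non-responders 1 to 4. Responders ran from 186 to 261 CPM with a median of 199. The groups did not overlap, and the spread over all tumors, 2.77-fold, was the narrowest of the 8 genes. Its log2 fold change was 0.65 (SE 0.15, adjusted p = 0.036 in edgeR), from 135 ± 34.8 CPM (SD, n = 4) to 212 ± 27.5 CPM (SD, n = 6). The call was kept without responder 4 (adjusted p = 0.0312) or non-responder 2 (0.0178) and was lost without any 1 of the other 8 tumors, with an adjusted p of 0.0503 to 0.0951 in edgeR. Exons of Cxcl16 share bases with Zmynd15 on the opposite strand, which also rose in responders, from 30.9 ± 9.06 CPM to 52.5 ± 6.002 CPM (log2 fold change 0.77, SE 0.16, adjusted p = 0.0283 in edgeR). Cxcl16 was 3.83 to 4.82 times as high as Zmynd15 in CPM across the 10 tumors, and without a stated strand setting reads of the shared bases cannot be told apart.

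Cxcr6, the receptor for CXCL16, rose by the largest fold of the 8 genes and varied the most. Non-responders 1 to 4 had 1.29, 4.85, 3.902 and 1.84 CPM of Cxcr6 (ENSMUSG00000048521, chr9:123806475-123811760, plus strand). Responders ran from 4.29 to 28.1 CPM with a median of 9.04. Responder 4, the lowest, fell below non-responder 2, the other 5 responders lay above all non-responders, and responders 1 and 5 stood apart from the rest at 21.3 and 28.1 CPM. The fold change was 4.43, or 2.15 on the log2 scale (SE 0.58, adjusted p = 0.0469 in edgeR), between 13.1 ± 9.46 CPM (SD, n = 6) and 2.97 ± 1.68 CPM (SD, n = 4). That call was lost in limma-voom (adjusted p = 0.105), and without any 1 of 8 tumors, where the edgeR adjusted p was 0.0538 to 0.119. Leaving out responder 4 or non-responder 2 kept it, at 0.0292 and 0.0411. The gene lies within the Fyco1 locus without sharing exon bases.

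Ccl5 and Xcl1, the chemokines that activated lymphocytes release, had higher means in responders without passing correction. Ccl5 (ENSMUSG00000035042, chr11:83525778-83530518, minus strand) measured 8.20, 21.5, 17.4 and 17.3 CPM in non-responders 1 to 4. Its responders ran from 19.8 to 44.3 CPM with a median of 27.9, and only responder 4 fell below the highest non-responder. The log2 fold change was 0.91 (SE 0.29, adjusted p = 0.0695 in edgeR), with means of 30.3 ± 10.1 CPM (SD, n = 6) and 16.1 ± 5.62 CPM (SD, n = 4). Without responder 4 the edgeR adjusted p of Ccl5 was 0.049.

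Xcl1 (ENSMUSG00000026573, chr1:164931644-164935527, minus strand) was the lowest of the 8 genes in CPM, with 0.323, 0.896, 0.911 and 1.09 CPM in non-responders 1 to 4. These values came from 8, 24, 21 and 36 counts, so counting error is a large part of their precision. Responders had 1.099 to 2.74 CPM with a median of 1.62, from 33 to 98 counts. The groups did not overlap, although responder 1, at 1.099 CPM, and non-responder 4, at 1.09 CPM, nearly met. The log2 fold change was 1.09 (SE 0.35, adjusted p = 0.0696 in edgeR), from 0.804 ± 0.332 CPM (SD, n = 4) to 1.73 ± 0.63 CPM (SD, n = 6). Exons of Xcl1 share bases with the opposite-strand transcript Gm20743, which was not analysed here.

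Per kilobase of transcript, 5 ligands led the order of levels, and both receptors stood below them together with Xcl1. In responders Cxcl9 was highest at 248 ± 39.7 CPM per kb (SD, n = 6), followed by Cxcl10 at 146 ± 40.5, Cxcl16 at 78.5 ± 10.2 and Ccl5 at 56.9 ± 18.9. Cxcl11 at 12.1 ± 3.87, Cxcr6 at 6.89 ± 4.97, Xcl1 at 3.30 ± 1.20 and Cxcr3 at 2.41 ± 0.85 CPM per kb followed. The order by mean in non-responders was the same, with 123 ± 77.1 CPM per kb for Cxcl9 (SD, n = 4) and 1.45 ± 0.25 for Cxcr3. Neighbors in this order overlapped in range in both groups, except Ccl5 over Cxcl11, which did not overlap in either, and Cxcl9 over Cxcl10, which did not overlap in responders.

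The other receptors and proteases of these ligands moved in part. Of 10 such genes, all tested, 4 rose and none fell in edgeR at an adjusted p under 0.05, against 4.71% of all genes higher, and their median log2 fold change was 0.34. Xcr1, the XCL1 receptor of cDC1, rose from 2.22 ± 0.68 CPM (SD, n = 4) to 6.13 ± 1.69 CPM (SD, n = 6), by 1.46 on the log2 scale (SE 0.25, adjusted p = 0.0222 in edgeR), and the groups did not overlap. Ccr1, which binds CCL5, rose by 0.35 (SE 0.10, adjusted p = 0.0481 in edgeR) and Adam17, a protease that releases membrane proteins from the cell surface, by 0.21 (SE 0.05, adjusted p = 0.0372 in edgeR). Those that did not pass were Ccr3, Ackr1, Ackr2, Ackr3, Dpp4 and Adam10. Ccr3, which also binds CCL5, was the 1 gene of the 10 with a negative estimate, -0.51 (adjusted p = 0.273 in edgeR). The count called was 0 without responder 3, non-responder 1 or non-responder 4, and 1 without responder 1, 2 or 5.

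**Figure D3:**
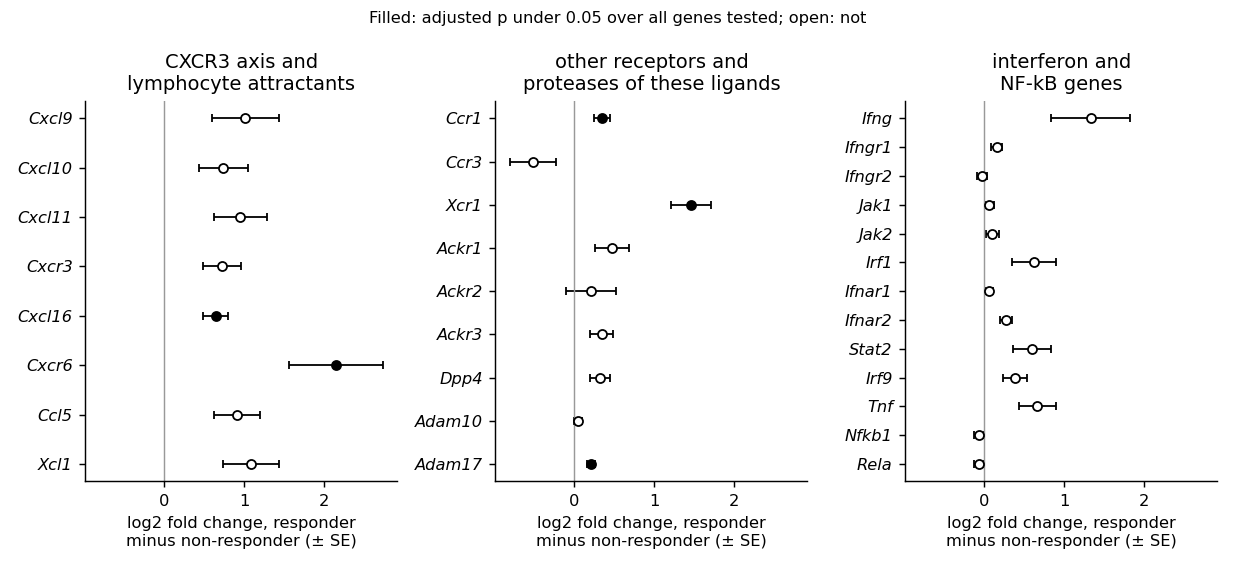
Log2 fold change of responders minus non-responders (horizontal axis) with its SE for the 8 genes, for 9 other receptors and proteases of their ligands, and for 13 interferon and NF-kB genes. Filled points have an adjusted p under 0.05 in edgeR: Cxcl16 and Cxcr6 in the first panel, Ccr1, Xcr1 and Adam17 in the second and none in the third.

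Among 14 interferon and NF-kB genes known to drive these ligands, none passed correction in edgeR or limma-voom and 4 did in DESeq2. The DESeq2 count stands beside its 2584 calls over all genes. In edgeR 8 of the 14 were higher at an unadjusted p under 0.05, as were 15.6% of all genes, with a median log2 fold change of 0.22 over the list. The 3 with the smallest p were Ifnar2, a subunit of the type I interferon receptor (64.8 ± 7.09 CPM in responders against 53.5 ± 3.84 CPM in non-responders, log2 fold change 0.28, adjusted p = 0.0543 in edgeR), Tnf (0.67, 0.0867) and Irf9 (0.39, 0.102). Ifng and Irf1 are given beside them because they stand in the pathway to Cxcl9, and were chosen after their values were seen. Ifng was at 3.16 ± 1.35 CPM (SD, n = 6) in responders and 1.26 ± 0.86 CPM (SD, n = 4) in non-responders (log2 fold change 1.33, SE 0.49, adjusted p = 0.102 in edgeR). Irf1 stood at 385 ± 60.3 CPM and 249.5 ± 113 CPM (0.62, SE 0.27, adjusted p = 0.158 in edgeR). The NF-kB subunits Nfkb1 and Rela had estimates of -0.06 each. The count called was 1 without responder 4 and 3 without non-responder 2.

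Of the 32 other chemokine ligands, 26 passed the filter, 2 rose and 1 fell in edgeR, beside 4.71% of all genes called higher and 8.06% called in either direction, with a median log2 fold change of 0.22. Cxcl12, the stromal ligand of CXCR4, rose from 26.2 ± 5.16 CPM (SD, n = 4) to 62.7 ± 15.8 CPM (SD, n = 6), by 1.26 on the log2 scale (SE 0.20, adjusted p = 0.0207 in edgeR). Cx3cl1, a membrane-bound chemokine, rose by 0.36 (SE 0.08, adjusted p = 0.0306 in edgeR). Ccl12, a ligand of CCR2, fell from 63.7 ± 4.90 CPM to 50.2 ± 4.83 CPM, a log2 difference of -0.34 (SE 0.07, adjusted p = 0.031 in edgeR). Of 21 other chemokine receptors, 19 were tested and 3 rose, Xcr1 and Ccr1 among them, with a median of 0.23. The median log2 fold change of the 8 members, 0.93, was above that of both lists, and the difference between lists was not tested. DESeq2 called 9 of the other ligands, among its 2584 calls over all genes. The count of other ligands called in edgeR was 0 without responder 3, non-responder 1 or non-responder 4, 1 without non-responder 3 and 5 without responder 4 or non-responder 2. For the other receptors it was 0 without responder 3, non-responder 1 or non-responder 4, and 1 without responder 1, 2 or 5.

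Ligand and receptor levels had positive correlations over all 10 tumors for the 4 pairs described. Both genes of each pair had higher estimates in responders, and this shared difference enters every pooled r. Among the 6 responders the coefficients of these pairs were also positive, and none passed a test over so few tumors. Over the 10 tumors, Cxcl16 and Cxcr6 had a Pearson r of 0.884 in log2 CPM (permutation p = 0.0006, adjusted over 5 pairs 0.0027) and a Spearman rho of 0.879 (permutation p = 0.00159, adjusted 0.00199). On removing non-responders 1 and 4, whose Cxcl16 lay farthest from its median, r was 0.740 (exact permutation p = 0.0327, adjusted 0.0408). In the 6 responders on their own r was 0.600 (exact permutation p = 0.206, adjusted over 6 pairs 0.308) and rho 0.486 (p = 0.356, adjusted 0.427), which did not pass. The 4 non-responders are too few for a value of their own. A high pooled r was not particular to this pair. Of 13256 genes compared outside the members, 752 had an r over 0.9 with Cxcl16 and 460 with Cxcr6.

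Cxcr3 also had a positive correlation with each of its ligands over the 10 tumors. Such values were not particular to the ligands, since 389 of 13256 genes compared outside the members had an r over 0.9 with Cxcr3. With Cxcl11, r was 0.833 (permutation p = 0.00763, adjusted 0.0127) and rho 0.927 (permutation p = 0.00034, adjusted 0.0017), and r was 0.853 (exact permutation p = 0.00863, adjusted 0.0358) without non-responder 1 and responder 2. With Cxcl10, r was 0.752 (permutation p = 0.0162, adjusted 0.0203) and rho 0.842 (permutation p = 0.00352, adjusted 0.00352), and r was 0.759 (exact permutation p = 0.0215, adjusted 0.0358) without non-responder 1 and responder 6. With Cxcl9, r was 0.743 (permutation p = 0.0332, adjusted 0.0332) and rho 0.891 (permutation p = 0.00113, adjusted 0.00199), and r was 0.814 (exact permutation p = 0.0153, adjusted 0.0358) without non-responders 1 and 4. Within responders r was 0.657, 0.471 and 0.726 for Cxcl11, Cxcl10 and Cxcl9 (exact permutation p = 0.149, 0.26 and 0.117, adjusted 0.297, 0.312 and 0.297). The rho values there were 0.771, 0.83 and 0.657 (exact permutation p = 0.103, 0.0583 and 0.175, adjusted 0.308, 0.308 and 0.35), and none passed. The adjusted p of r for Cxcl9 was above 0.05 without responder 2 (0.0661), responder 3 (0.0531), non-responder 1 (0.0686) or non-responder 4 (0.0573), and that for Cxcl10 without non-responder 1 (0.0702), all by permutation.

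For Xcl1 and Xcr1 the groups were separate on both genes, so no pooled value is given. Among responders their r was 0.456 (exact permutation p = 0.328, adjusted 0.328) and rho 0.314 (exact permutation p = 0.564, adjusted 0.564).

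**Figure D4:**
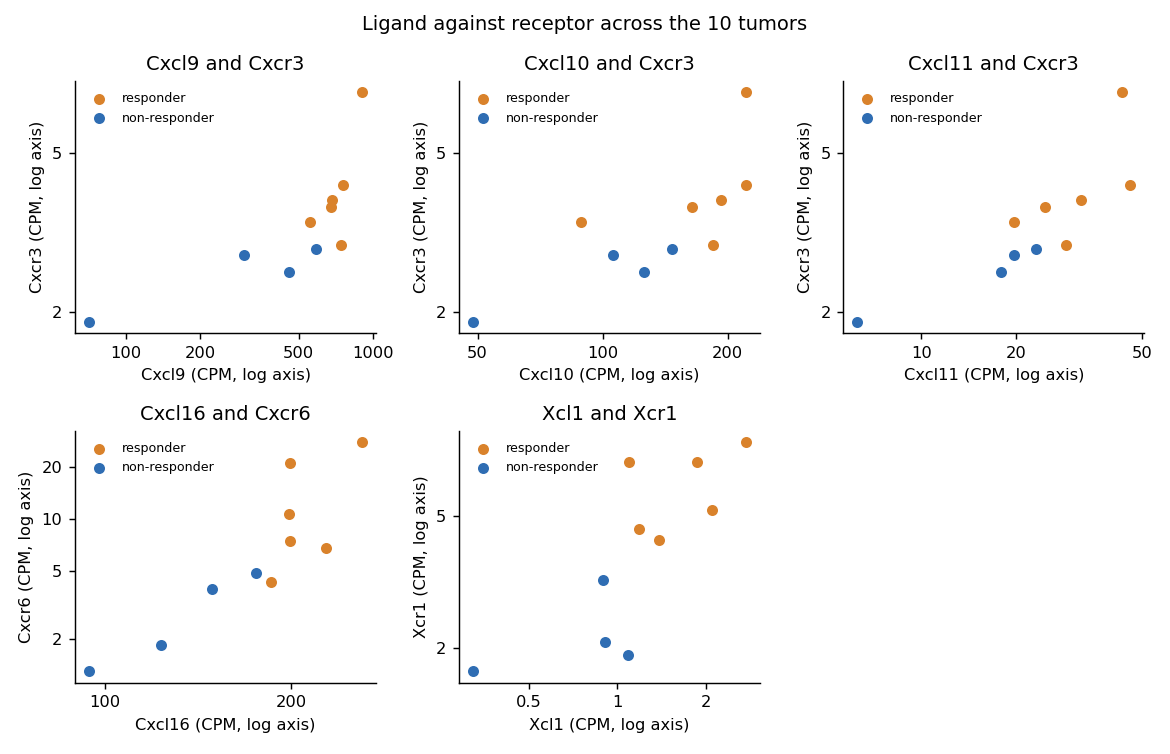
Each ligand (horizontal, CPM, log axis) against its receptor (vertical, CPM, log axis) in the 10 tumors, with responders in orange and non-responders in blue. Non-responder 1 is at the lower left of every panel, and Xcl1 with Xcr1 is the panel in which the groups separate on both axes.

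Leukocyte markers were higher in responders as well, and in bulk tumor RNA fewer cells of a type and less RNA per cell cannot be told apart. Ptprc, the gene of the pan-leukocyte protein CD45, was at 326 to 499 CPM in responders and 181 to 307 CPM in non-responders (log2 fold change 0.60, SE 0.15, adjusted p = 0.0413 in edgeR). With Ptprc as a covariate 0 of all 16041 genes were called and 845 had an unadjusted p under 0.05 in edgeR. In that fit no member was called and 0 of 8 had an unadjusted p under 0.05. The log2 fold changes of Cxcl16 and Cxcr6 were 0.10 and 0.20. Ptprc did not overlap between the groups, so the response label and the leukocyte level cannot be told apart in these tumors. With the mean of the T cell markers as a covariate, the log2 fold changes of Cxcl16 and Cxcr6 were 0.28 and 0.43 (edgeR adjusted p = 0.486 and 0.679), and 1 of 8 members had an unadjusted p under 0.05. Among all genes 0 were called in that fit and 1574 had an unadjusted p under 0.05 in edgeR.

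Expressed as percent of Ptprc CPM, the ranges of the groups overlapped for all 8 members. Cxcl16 was 51.2% to 62.3% of Ptprc in responders and 52.0% to 57.0% in non-responders, and Cxcr3 was 0.901% to 1.41% and 0.896% to 1.19%. Cxcr6 was 1.32% to 5.72% in responders and 0.713% to 1.58% in non-responders, with 5 of 6 responders above all non-responders, and means of 3.25% ± 1.93 (SD, n = 6) and 1.12% ± 0.43 (SD, n = 4). Cxcl9 was 168% to 226% in responders, and 39.2%, 192%, 163% and 129% in non-responders 1 to 4. Non-responders 1, 3 and 4 lay below every responder, non-responder 1 by the most, and non-responder 2 lay inside the range of the responders. The ranges of Cxcl10, Cxcl11, Ccl5 and Xcl1 overlapped, with 3 of 6 responders above all non-responders for each. Against Cd3e, a chain of the T cell receptor complex, Cxcr6 was 0.535 to 0.954 of the Cd3e CPM in responders and 0.278 to 0.531 in non-responders, with no overlap, while Cxcr3 was 0.142 to 0.366 and 0.290 to 0.447. These ratios were chosen after the values were seen and carry no test.

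**Figure D5:**
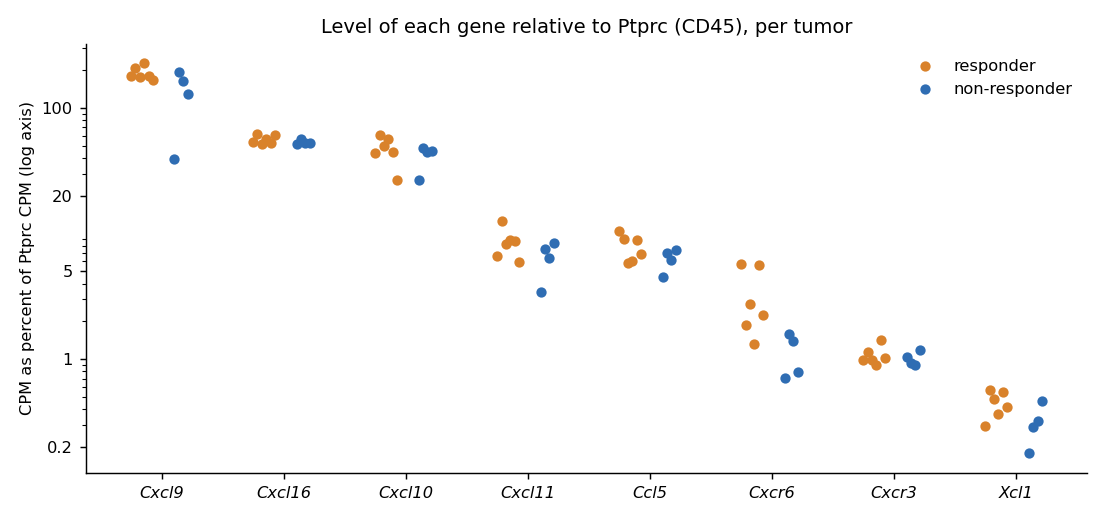
CPM of each gene as percent of Ptprc CPM in the same tumor (vertical, log axis), 1 point per tumor, with responders in orange and non-responders in blue. Cxcl16 lies between 51.2% and 62.3% in all 10 tumors, and Cxcr6 has 5 of 6 responders above every non-responder.

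Markers of the cells that make or receive these chemokines are given beside the members, where 4.71% of all genes were called higher and 15.6% were higher at an unadjusted p under 0.05. Of 6 T cell markers measured, 6 had an unadjusted p under 0.05 and none was called in edgeR (DESeq2 called 4), with a median log2 fold change of 0.94 and a summed level of 35.1 to 121 CPM in responders and 18.7 to 42.3 CPM in non-responders. For CD8 T cells 1 of 2 was called (median 1.86, 15.1 to 82.0 CPM against 4.97 to 22.03 CPM). Among NK cell markers 2 of 4 tested were called, Klre1 and Klrk1 (median 1.1, 49.1 to 98.1 CPM against 12.1 to 40.6 CPM). Ncr1 and Klrb1c did not pass (adjusted p = 0.0866 and 0.094 in edgeR), and Klra8 was under 3 counts in every tumor. Of the 5 cDC1 markers Wdfy4 and Xcr1 were called, Clec9a was not (0.61), and Snx22 and Flt3 had estimates of -0.09 and 0.01 (median 0.31, summed 75.7 to 90.65 CPM against 57.0 to 71.9 CPM), and 5 of 7 macrophage markers were called (median 0.65, 2860 to 4271 CPM against 1991 to 2692 CPM). No gene was called in edgeR or limma-voom among the markers of regulatory T cells (3 tested, 0 at an unadjusted p under 0.05, 34.3 to 49.05 CPM against 25.9 to 44.3 CPM), B cells (3 tested, 1 unadjusted, 2.87 to 7.33 CPM against 2.10 to 3.51 CPM), neutrophils (4 tested, 1 unadjusted, 68.3 to 137 CPM against 51.4 to 111 CPM) or endothelium (3 tested, 0 unadjusted, 81.9 to 136.5 CPM against 64.4 to 98.9 CPM). DESeq2 called 1 of these, a B cell marker. Of the 4 neutrophil markers 3 had lower estimates in responders, with a median log2 fold change of -0.07. The 1 with an unadjusted p under 0.05 in edgeR was Csf3r, with a log2 fold change of 0.42.

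Skeletal muscle and adipocyte markers had higher estimates in responders, although the summed levels of each list of tissue beside the tumor overlapped between the groups. Of 5 skeletal muscle markers 2 were called higher in responders in edgeR, where all 5 had an unadjusted p under 0.05, and 4 were called in DESeq2. Their median log2 fold change was 1.02. In summed level 5 responders lay above all non-responders (348 to 1122 CPM against 308 to 402 CPM). None of 4 adipocyte markers was called in edgeR, where all 4 had an unadjusted p under 0.05, and 4 were in DESeq2 (8.56 to 34.6 CPM against 3.56 to 15.7 CPM, median log2 fold change 2.05). Keratinocyte markers summed to 2.77 to 3.85 CPM in responders and 2.69 to 8.21 CPM in non-responders, with 1 tested, 0 at an unadjusted p under 0.05 and none called in edgeR or DESeq2. The part of the NK cell, dendritic cell, macrophage, muscle and adipocyte levels in the members' differences was not tested.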

How the data were processed

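Polyadenylated RNA of 10 CT26 tumor pieces was sequenced in paired ends. The authors checked reads with FastQC, quantified transcripts with Kallisto on mm10 (GRCm38) and summed them to genes with tximport; the annotation release, tximport scaling and strand setting are not given in the sources used here. The deposited values are estimated counts per gene, with 45.1% of values not whole, and were rounded. Totals ran from 23374649 to 38042544 per tumor, where 3 counts equal 0.0789 to 0.128 CPM. The 9633 rows without a gene name stayed in the fit, and 35912 of 36009 IDs matched the GRCm38 annotation. Groups followed the response label, and tumors were numbered in accession order. The edgeR p-values set the difference between the groups against the variation between tumors of a group. The correlation p-values come from permuting the tumors.

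Genes passing filterByExpr (minimum count 10, minimum total 15) were TMM-scaled and tested with edgeR 4.0.16 (quasi-likelihood, two-sided, Benjamini-Hochberg over all 16041 genes, threshold 0.05) in R 4.3.3, after a test on simulated data. Log2 CPM used a prior count of 2. Correlations used 100000 permutations for 10 tumors and exact permutations for fewer, two-sided. CPM per kb used the median transcript length of each gene. Alternatives were DESeq2 1.42.0, limma-voom (limma 3.58.1), RLE scaling, no filter, robust dispersion, a T cell or Ptprc covariate, a prior count of 0.5 and leaving out each tumor. The genes named are all 8 members, the called genes of each pathway list or else the 3 of smallest p, and the 3 genes most like each member at 1 CPM or more on average. Members and lists were chosen with earlier results of these data known. The T cell marker Trac was not used here. Some genes that enter the list counts and 1 of the 6 ligand and receptor pairs that enter the adjusted p-values are not reported here.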

Additional observations from a re-analysis of the deposited data

Results flagged for a closer look

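Among the 16 combinations of a gene and a response group, 2 had 1 tumor far from the others of its group, where chance would give 0.8. Responder 6 had 88.65 CPM of Cxcl10 while the other responders ran from 163.9 to 222 CPM, a gap of 0.670 of the range of the responders in log2 CPM. Non-responder 1 had 0.323 CPM of Xcl1 while the other non-responders ran from 0.896 to 1.09 CPM, a gap of 0.834 of the range of its group. The Xcl1 value rests on 8 counts.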

How the results depend on the processing

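All 8 members kept a positive log2 fold change in edgeR with RLE scaling, without a filter, with robust dispersion, in DESeq2, in limma-voom and on leaving out each tumor. With the T cell covariate the estimates were positive but smaller, down to 0.08 for Cxcr3 and 0.10 for Ccl5, and none passed. With Ptprc as a covariate the estimates of Cxcl9 (-0.19), Cxcl10 (-0.15), Cxcl11 (-0.0176), Cxcr3 (-0.0923) and Ccl5 (-0.0581) turned negative, none passing; Ptprc itself differs between the groups. DESeq2 called 2584 genes, 5 members, 4 inducers and 9 other ligands, against 1293, 2, 0 and 3 in edgeR, and limma-voom called 1 member. With the T cell covariate 0 genes were called in edgeR, with 1574 at an unadjusted p under 0.05, and hence 0 of the members (1 unadjusted), receptors and proteases (4), other ligands (6) and other receptors (3). With the Ptprc covariate it was 0 genes (845 unadjusted), and 0 in the same lists (0, 1, 4 and 1). Leaving out each tumor, the calls ranged from 0 to 1897 over all genes (0 without non-responder 4, with 4106 unadjusted, 16 without non-responder 1 and 17 without responder 3), from 0 to 3 for the members, from 0 to 4 for receptors and proteases, from 0 to 3 for the inducers, from 0 to 5 for other ligands and from 0 to 4 for other receptors. The cause of these changes was not tested. Leaving out each tumor moved r between 0.697 and 0.842 for Cxcl9, 0.615 and 0.803 for Cxcl10 and 0.795 and 0.9 for Cxcl11 with Cxcr3, and between 0.840 and 0.926 for Cxcl16 with Cxcr6. No paired analysis applied, because responders and non-responders were different mice. Xcl1 with Xcr1 was not recomputed without single tumors, since 5 responders would be left. Xcl1 and Cxcr3 have the fewest counts of the 8 members, and the SE was largest for Cxcr6 (0.58) and Cxcl9 (0.42).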

Other observations

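For each member, the 3 genes whose levels followed it most closely over the 10 tumors are given, and Cd40 came first for both Cxcl10 and Cxcl11. Likeness was the Pearson r of log2 CPM over 13256 genes compared, as a description in which all genes share the same libraries and the same difference between groups. Cxcl9 was most like Gbp6 (r = 0.995), Gbp2b (0.994) and Igtp (0.992), which encode interferon-induced GTPases, and within the 6 responders these r were 0.928, 0.798 and 0.777. Cxcl10 was most like Cd40, a costimulatory receptor of antigen-presenting cells (0.958), Nod2, a sensor of bacterial cell wall fragments (0.956), and Gnb4 (0.955). For Cxcl11 the values were 0.989 for Cd40 (0.982 within responders), followed by Slc9a3r1 (0.978) and Slc25a28 (0.975).

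For Cxcr6 the closest gene was Cd3e, a chain of the T cell receptor complex, with r = 0.992 over all tumors and 0.995 within responders, followed by Klra17 (0.989) and Prkch (0.987). Cxcr3 was closest to Rnf130 (0.979), Fam102a (0.978) and the lymphocyte lipid receptor gene S1pr4 (0.978). Cxcl16 was closest to Plbd1 (0.992), Klrb1b (0.988) and Shtn1 (0.987), and 752 genes had an r over 0.9 with it, against 72 for Cxcl10. Ccl5 was closest to Chn2 (0.981), Asb13 (0.980) and Lax1 (0.975). Xcl1 was closest to Cd69, an early activation marker of lymphocytes (0.983), Cd1d1, which presents lipids to NKT cells (0.980), and Atp2a3 (0.980). How far these r differ from each other was not tested.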
